A study of Mus musculus with 60 samples.

Results

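The 38 genes described here encode the secreted Wnt ligands (19 genes), the Frizzled (Fzd) receptors (10 genes) and the secreted antagonists of the Sfrp and Dkk families with Wif1 (9 genes). They were taken as a fixed list of names out of 21938 protein-coding genes. No cut-off on a measured value selected them, but earlier results of these data were known when the list was made. The data were peak lists from CUT&RUN, an assay in which an antibody guides a nuclease that cuts out the bound chromatin for sequencing. The cells were C3H 10T1/2, a mouse mesenchymal progenitor line able to form fat, bone and cartilage cells. Each line carried a lentiviral transgene for human histone H3.1 with C-terminal HA and FLAG tags, driven by an EF1 promoter, and kept its endogenous H3. The transgene was wild type (H3WT) or had a cysteine in place of 1 arginine of the N-terminal tail (H3R2C, H3R8C, H3R17C or H3R26C), so the tag and the selection were shared by all groups. One antibody was against H3K27me3, the trimethyl mark that Polycomb repressive complex 2 places on silenced developmental genes, and the other was against the HA tag.

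Wnt ligands are lipid-modified proteins that act on nearby cells. A ligand binds the cysteine-rich domain of an Fzd receptor together with the co-receptors Lrp5 and Lrp6, which stabilises β-catenin and turns on targets of the TCF/LEF factors, and some ligands act instead through polarity pathways. Sfrp proteins and Wif1 bind the ligands, and Dkk1 binds the co-receptors. In mesenchymal progenitors Wnt6, Wnt10a and Wnt10b are known to hold cells back from the fat cell fate, and the pathway favours bone formation.

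Each genotype had 3 labelled replicates per antibody, but lists of 1 genotype with identical values were counted as 1 library. This left 2 H3K27me3 libraries each for H3WT, H3R2C, H3R8C and H3R26C, in which the first library is the list shared by replicates 1 and 2 and the second is replicate 3. H3R17C had 1 usable H3K27me3 list, shared by replicates 2 and 3, because the file of its replicate 1 named another mark. The 9 lists held 20077 to 24598 peaks that covered 64.2 to 130.4 Mb, and the weakest peak of a list had a total signal of 3400 to 8050. Read totals, which the study gives per sample, were not used here, because the lists hold summed coverage and no counts. The totals it gives differ between replicates whose lists are identical, so which of the replicates such a list came from is open. The second H3R26C library had both the shortest covered length and the lowest weakest peak, while the first H3R2C library had the longest and the highest. The samples used here hold no RNA, and the RNA sequencing that the paper reports for these cells was not used. H3K27me3 lay over the start of 0 of 8 mesenchymal marker genes and 0 of 6 control genes in any library, and over Sox1 and Neurod1 among 8 markers of other cells in every library.

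The promoters of Wnt4, Wnt6 and Dkk1 are printed because their genes had the lowest adjusted p of the members against H3WT, and the fourth such gene, Sfrp1, is named only. The windows are from RefSeq (GRCm38.p6) and run from 250 bases before to 50 bases after the RefSeq start, 5′ to 3′ on the strand of the gene. Capitals mark matches to CANNTG, the E-box, and to CTTTGA, the core bound by TCF/LEF factors, searched on both strands. The matches do not overlap each other. Wnt4 lies on the plus strand at chr4:137277385-137277684, Wnt6 on the plus strand at chr1:74771642-74771941, and Dkk1 on the minus strand at chr19:30549447-30549746.
Wnt4: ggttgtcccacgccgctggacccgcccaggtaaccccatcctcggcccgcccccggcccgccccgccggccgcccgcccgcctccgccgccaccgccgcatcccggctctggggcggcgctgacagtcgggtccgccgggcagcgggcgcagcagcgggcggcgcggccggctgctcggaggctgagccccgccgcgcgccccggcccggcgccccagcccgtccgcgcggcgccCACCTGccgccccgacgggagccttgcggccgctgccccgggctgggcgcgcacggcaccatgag
Wnt6: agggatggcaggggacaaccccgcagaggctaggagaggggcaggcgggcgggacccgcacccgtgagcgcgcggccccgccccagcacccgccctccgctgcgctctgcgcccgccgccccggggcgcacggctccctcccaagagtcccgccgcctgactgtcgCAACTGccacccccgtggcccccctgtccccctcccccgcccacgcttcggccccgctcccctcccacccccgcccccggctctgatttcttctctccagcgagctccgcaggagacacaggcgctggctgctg
Dkk1: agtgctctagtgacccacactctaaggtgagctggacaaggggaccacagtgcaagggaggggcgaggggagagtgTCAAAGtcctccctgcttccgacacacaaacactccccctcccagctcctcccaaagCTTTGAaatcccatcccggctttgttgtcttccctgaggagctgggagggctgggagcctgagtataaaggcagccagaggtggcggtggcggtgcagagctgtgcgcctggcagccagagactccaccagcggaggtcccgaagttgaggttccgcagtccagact
The Wnt4 and Wnt6 windows each held 1 E-box and 0 CTTTGA matches, and the Dkk1 window held 2 CTTTGA matches and 0 E-boxes. Their GC content was 84.3% for Wnt4, 76.7% for Wnt6 and 60.7% for Dkk1. A RefSeq window was at hand for 26 of the 38 members, and the median GC content of these was 71% with 28 CpG sites, against 52.7% and 7 over 32851 promoters of all genes. The median GC content was 74.2% over 6 receptor promoters and 71.7% over 15 ligand promoters. CTTTGA occurred in 3 of 26 member promoters (11.5%) and in 16% of all promoters, and CANNTG in 18 of 26 (69.2%) and in 72.3%.

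Most ligand genes were marked and 9 of 10 receptor genes were not. In both H3WT libraries, a peak overlapped the window of 1 kb on each side of the start site in 12 of 19 ligand genes, 1 of 10 receptor genes and 4 of 9 antagonist genes, and in 8.84% of all protein-coding genes. The share of ligands with a peak ran from 57.9% to 68.4% over the 9 libraries, while that of the receptors was 10% in each and that of all genes ran from 7.6% to 11.9%. The antagonists varied more, from 22.2% in the second H3R2C library to 66.7% in the second H3WT and the first H3R26C library. Members with a peak in every library of a genotype numbered 17 in H3WT, 14 in H3R2C, 18 in H3R8C, 18 in H3R17C and 15 in H3R26C. The rule was laxer for H3R17C, which had 1 library. The lists as a whole differed too: the second H3R2C library had the lowest share of both members (36.8%) and all genes (7.6%). The shares did not move together throughout. The H3R17C library had 47.4% of members beside 8.83% of all genes. The first H3R26C library had the same 47.4% beside 11.9%, the highest share of all genes. In bulk cells, fewer cells with the mark and less of it per cell cannot be told apart. No pair of members shared a peak over their starts, although Wnt1 and Wnt10b start 11.7 kb apart, Wnt3a and Wnt9a 16.2 kb, Wnt6 and Wnt10a 19.6 kb, and Wnt3 and Wnt9b 24.3 kb.

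**Figure D1:**
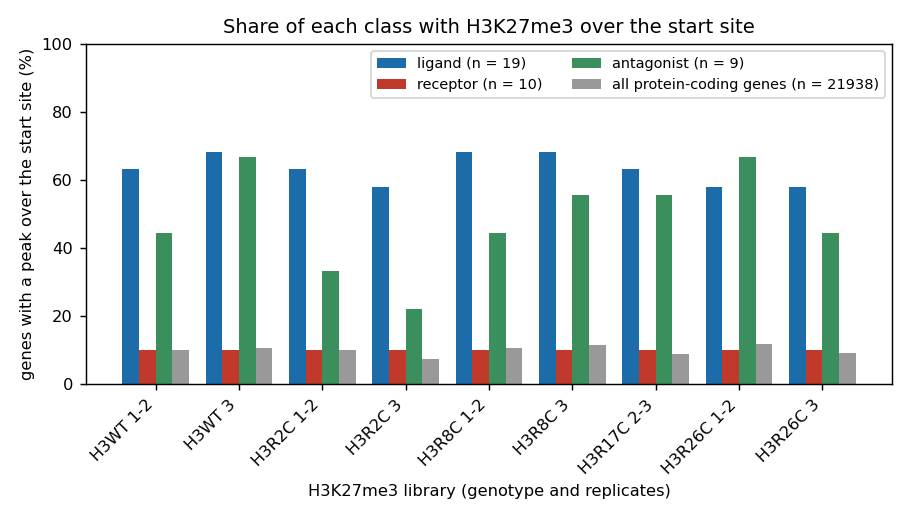
Percent of the genes of each class with an H3K27me3 peak over the start site (y axis) in each of the 9 libraries (x axis; genotype and replicates), for 19 ligands, 10 receptors, 9 antagonists and all 21938 protein-coding genes. The receptor bars stay at 10% and next to those of all genes, and the ligand bars lie between 57.9% and 68.4%.

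Among the ligands, 9 genes had a peak over the start in each of the 9 libraries: Wnt3, Wnt3a, Wnt6, Wnt7a, Wnt7b, Wnt8b, Wnt9b, Wnt10a and Wnt11. Signal is given as the total signal of the peaks over the start, divided by the library's median over the genes marked in every library of the fit. A value of 1 is thus typical of genes marked in every library. The median over all protein-coding genes with a peak in a library was lower, from 0.403 to 0.578. Wnt7a, which patterns the dorsal limb, had the highest scaled signal of any member in H3WT, at 3.71 and 4.57. By the mean of the H3WT libraries, Wnt9b, Wnt3 and Wnt7b followed with 2.6, 2.47 and 2.28, although Wnt10a (2.7) and Wnt8b (2.52) were above Wnt3 (2.51) in the second library. Wnt9b is a ligand of the kidney, Wnt3 of the primitive streak and Wnt7b of the lung. Wnt8b and Wnt10a were covered over 88% to 100% and 89.7% to 100% of the gene body in all 9 libraries. Wnt5a and Wnt5b, which signal mainly through polarity pathways, and Wnt4 and Wnt11 had lower scaled signals, 0.145 to 0.829 in H3WT. Wnt6, at 0.282 and 0.395 in H3WT, lay in the same range. Wnt5a had a peak in 8 libraries and lacked one in the second H3R26C library, and Wnt5b had a peak in 8 and lacked one in the first H3R26C library.

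Wnt2, Wnt2b, Wnt8a, Wnt9a, Wnt10b and Wnt16, 6 ligands in all, had a peak over the start in 0 of 9 libraries. Wnt9a was the nearest to a peak, with distances of 4.93 to 8.58 kb from its start, and 14.8% of its body was covered in the first H3R2C library. The others lay farther from any peak, with a median distance of 133 kb for Wnt2b, 147 kb for Wnt8a, 339 kb for Wnt16 and 838 kb for Wnt2. For Wnt10b the nearest peak lay 11.7 to 13 kb away in the H3WT and H3R8C libraries. In the H3R2C, H3R17C and H3R26C libraries it lay 276 to 298 kb away. Of the ligands that restrain fat cell formation, Wnt6 and Wnt10a were thus marked in every library and Wnt10b in none.

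Of the receptors, Fzd3, known for its part in axon guidance, was marked in each of the 9 libraries. Fzd1, Fzd2, Fzd4, Fzd5, Fzd6, Fzd7, Fzd8, Fzd9 and Fzd10 had a peak neither over the start nor over any part of the gene body in any library. The nearest peak to these 9 starts lay at a median of 45.1 kb for Fzd9 and 104 kb for Fzd2, up to 451 kb for Fzd10. At 0 of 9 libraries the lists give no lower level for these genes, since a weak signal that the caller left out cannot be told from none.

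Of the antagonists, Sfrp5 and Wif1 had a peak over the start in each of the 9 libraries. Sfrp1 had one in 8 libraries and Dkk1 in 7. Sfrp2 had one in 4 libraries, the second H3WT, the second H3R8C, the H3R17C and the first H3R26C library, at scaled signals of 0.0833 to 0.148. Dkk2 had one in the second H3WT and the first H3R26C library, at 0.0921 and 0.108. Sfrp4, Dkk3 and Dkk4 had none in any library, with the nearest peak to Sfrp4 18.2 to 20.3 kb away.

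**Figure D2:**
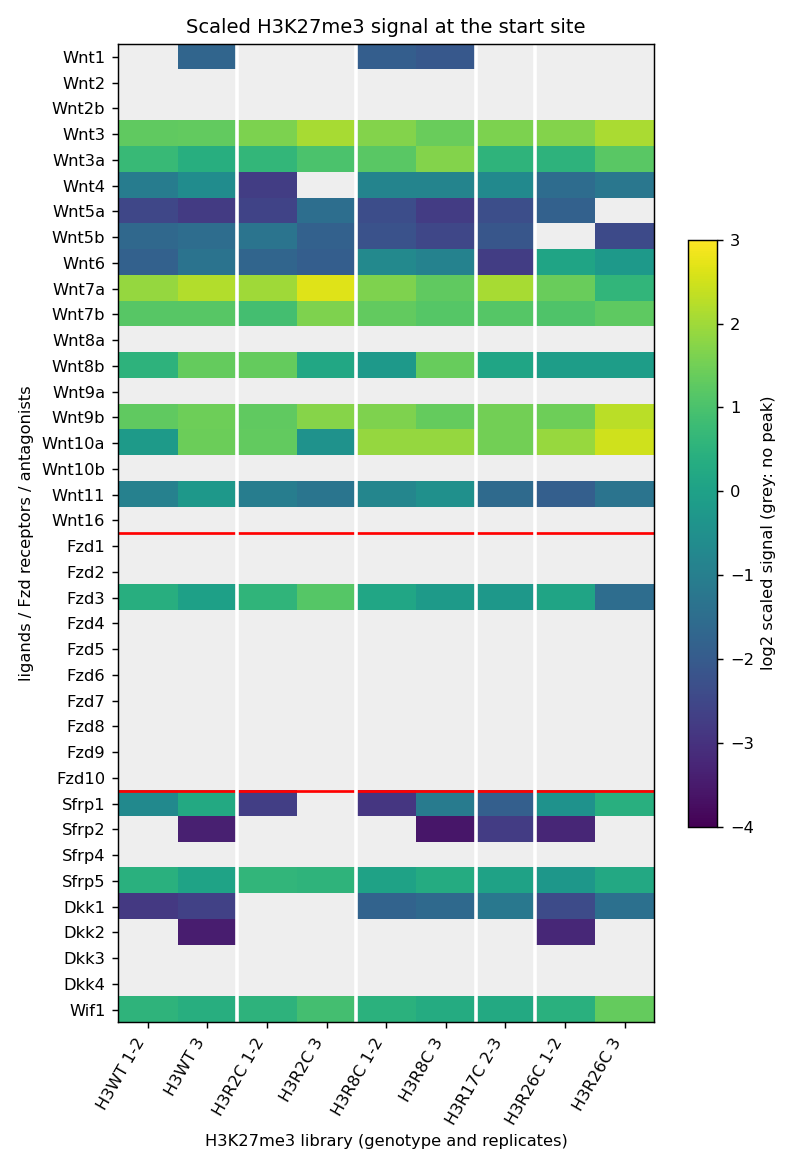
Scaled H3K27me3 signal at the start site on a log2 colour scale for the 38 members (rows; red lines part ligands, receptors and antagonists) in the 9 libraries (columns). Grey cells have no peak, as in all 9 receptor rows other than Fzd3. H3R17C was scaled with all 9 libraries and the others with 8.

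The question put to these libraries was where H3K27me3 differs between cells with a mutant and with the wild-type transgene, with H3R2C and H3R26C as the main mutants. Of 2810 genes tested across the genome, 18 were members: 13 ligands, Fzd3, and Sfrp1, Sfrp5, Dkk1 and Wif1. The other 20 could not enter, since no genotype had a peak over their start in both libraries. Differences are log2(scaled signal + 0.25) and thus understate the change of weak genes. Adjusted p is from limma with Benjamini-Hochberg adjustment over the 2810 genes.

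In H3R2C cells, H3K27me3 at the start was lower for Wnt4 and Sfrp1, and no member was higher. Over all genes, 17.9% were lower and 11.3% higher in this comparison, so that 2 of 18 and 0 of 18 members do not stand above the background. The median difference over the 18 members was 0.04, beside -0.09 over all genes. Without the adjustment, 3 of the 18 were lower and 0 higher at p under 0.05.

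Wnt4 (ENSMUSG00000036856.4, chr4:137277489-137299726, plus strand) is needed for kidney and ovary development. Its scaled signal was 0.482 and 0.66 in the H3WT libraries, 0.151 and 0 in H3R2C, 0.558 and 0.556 in H3R8C, 0.624 in H3R17C, and 0.348 and 0.426 in H3R26C. Both H3R2C values lay below those of the other 7 libraries. In the first H3R2C library the peak ended 0.489 kb short of the start, and in the second the nearest peak was 13.4 kb away, so that 0% of the body was covered in both, against 8.37% and 13.3% in H3WT. The mean was 0.0756 ± 0.107 in H3R2C and 0.571 ± 0.126 in H3WT (SD, n = 2), a log2 difference of -1.37 (SE 0.31, adjusted p = 0.0202). The call was lost without the first H3WT library (adjusted p = 0.0572), the second H3WT library (0.0975), the second H3R2C library (0.06) and either H3R8C library (0.0527 and 0.0524), and over all alternatives adjusted p ran from 0.000429 to 0.116.

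Sfrp1 (ENSMUSG00000031548.7, chr8:23411502-23449632, plus strand) is a ligand-binding antagonist. Its scaled signal was 0.626 and 1.18 in H3WT, 0.155 and 0 in H3R2C, 0.134 and 0.472 in H3R8C, 0.27 in H3R17C, and 0.74 and 1.33 in H3R26C. The H3R2C values lay below those of H3WT and H3R26C and overlapped those of H3R8C. Peaks remained upstream in H3R2C, the nearest at 0.752 and 1.95 kb from the start, and 0% of the body was covered, against 10.2% and 9.18% in H3WT. The mean was 0.0775 ± 0.11 in H3R2C and 0.904 ± 0.393 in H3WT (SD, n = 2), a log2 difference of -1.82 (SE 0.48, adjusted p = 0.0341). The call was lost whichever of the 8 libraries was left out, with adjusted p of 0.0539 to 0.186. The highest were 0.186 without the second H3R2C and 0.169 without the second H3WT library, and over all alternatives it ran from 0.00312 to 0.186.

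Dkk1 (ENSMUSG00000024868.8, chr19:30545863-30549665, minus strand) was the 1 member with a peak over the start in both H3WT libraries and in neither H3R2C library. Of the 17 members with a peak in both H3WT libraries 1 was thus lost, beside 26.1% of all such genes, and of the 18 with a peak in neither H3WT library 0 were gained, beside 1.09%. Its scaled signal was 0.141 and 0.161 in H3WT, 0 and 0 in H3R2C, 0.292 and 0.328 in H3R8C, 0.436 in H3R17C, and 0.191 and 0.377 in H3R26C. The nearest peak in both H3R2C libraries lay 309 kb away. The H3WT peak was weak, with a total signal of 9700 and 12750, while the weakest peak of the H3R2C lists had 8050 and 4250. The gene body was covered over 18.8% and 60.9% in H3WT, 78% and 100% in H3R8C, 79.3% in H3R17C and 42.5% and 37.2% in H3R26C. The log2 difference of -0.68 (SE 0.22), whose size depends on the added 0.25 because H3R2C is at 0, did not pass the test (adjusted p = 0.0659). Without the first or the second H3R26C library the difference was -0.69 or -0.72. Of 16 settings that left out no library, it passed in 4. These were a pseudocount of 0.05 (adjusted p = 0.0172), maximum signal (0.00641), prorated signal (0.00421) and labelled replicates counted as separate samples (0.00276). Over all alternatives adjusted p ran from 0.00276 to 1.

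**Figure D3:**
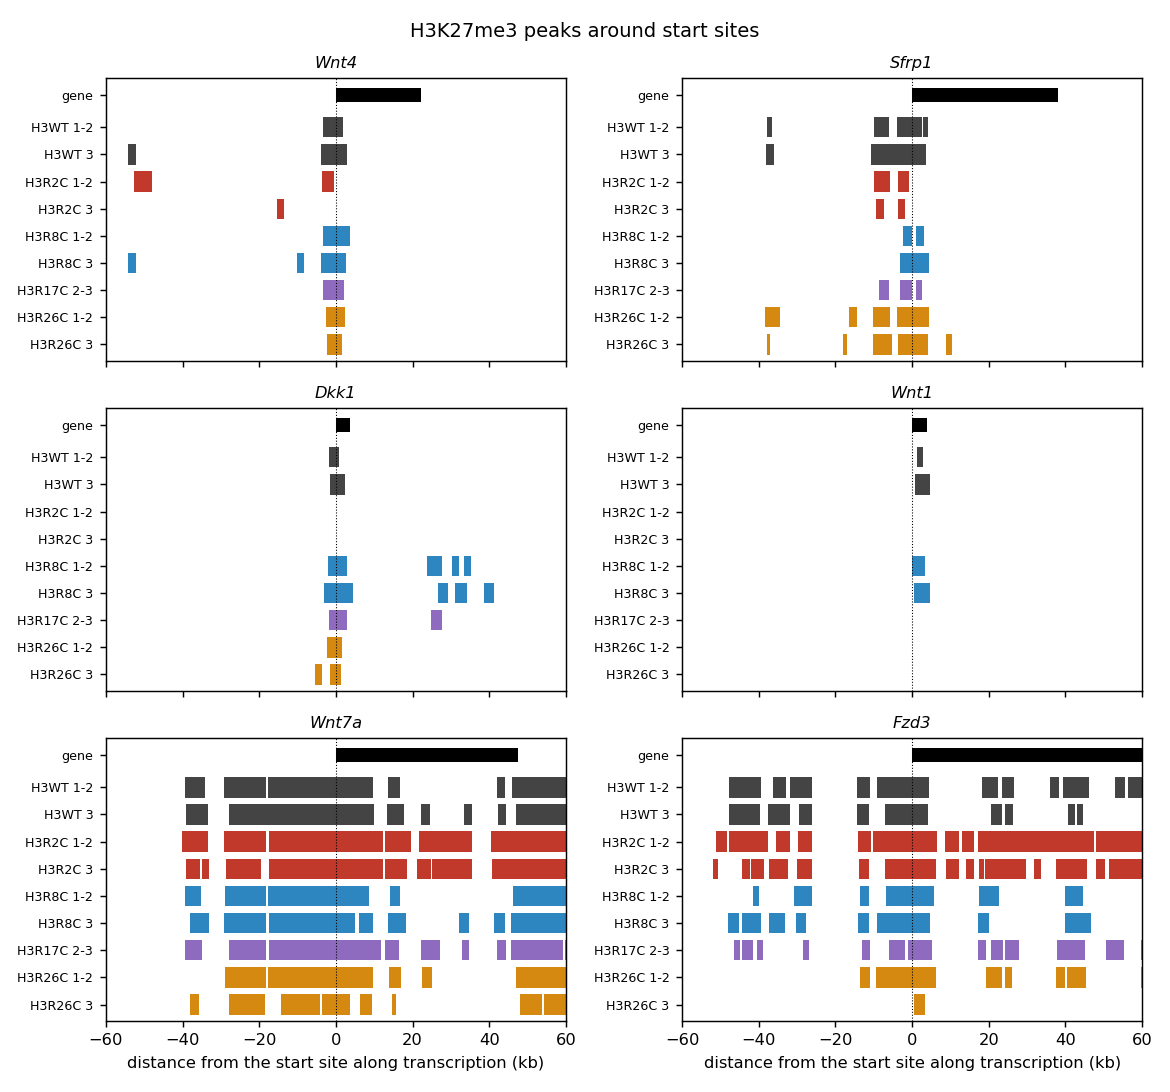
H3K27me3 peaks (coloured bars) from 60 kb before to 60 kb after the start site of 6 members (x axis in kb along transcription), 1 row a library, with the gene as a black bar that is cut at 60 kb for Fzd3. The Dkk1 rows of H3R2C are empty, and those of Sfrp1 keep peaks upstream of the start. Over Wnt7a and Fzd3 the H3R2C bars cover a larger part of the gene.

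While the start sites of Wnt4, Sfrp1 and Dkk1 had less signal in H3R2C, the gene bodies of Wnt7a, Wnt7b and Fzd3 were covered over a larger part. Wnt7a was covered over 84.2% and 82.2% in H3R2C, 35.1% and 44.4% in H3WT, 25.9% and 43.7% in H3R8C, 55.2% in H3R17C, and 33.6% and 16.3% in H3R26C. Wnt7b was covered over 66.6% and 46.5% in H3R2C and over 15.1% to 23% in the 7 other libraries. Fzd3 was covered over 94.3% and 77.4% in H3R2C, 45.8% and 18% in H3WT and 4% to 39.6% in the rest. In each of the 3 genes both H3R2C libraries lay above all other libraries, as they did in 11.4% of 3171 genes covered in both H3WT libraries. The count of genes whose 2 mutant libraries both exceeded both H3WT libraries by at least 20 percentage points was set up after these values were seen. It held for 3 of the 18 members with coverage in both H3WT libraries and for 2.74% of 3171 such genes. The opposite, at least 20 points less, held for 1 member, Wnt1, and for 10.8% of genes. With the upper 50% of peaks of each list the same 3 members met the first rule, beside 2.79% of genes, at 30 points Wnt7a and Fzd3 did, beside 1.32%, and at 10 points 4 members did, Sfrp5 among them, beside 7.76%. The covered length of the whole list was longest in the first H3R2C library but was 77 Mb in the second, less than the 103.6 and 98.6 Mb of H3WT.

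The wider coverage did not come with a called difference at the starts of these genes. The scaled signal of Wnt7a was 4.02 and 6.31 in H3R2C and 3.71 and 4.57 in H3WT (log2 difference 0.28, SE 0.34, adjusted p = 0.594). That of Fzd3 was 1.5 and 2.22 against 1.31 and 0.994 (log2 difference 0.57, SE 0.41, adjusted p = 0.345), and that of Wnt7b differed by 0.08 (SE 0.27, adjusted p = 0.891).

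**Figure D4:**
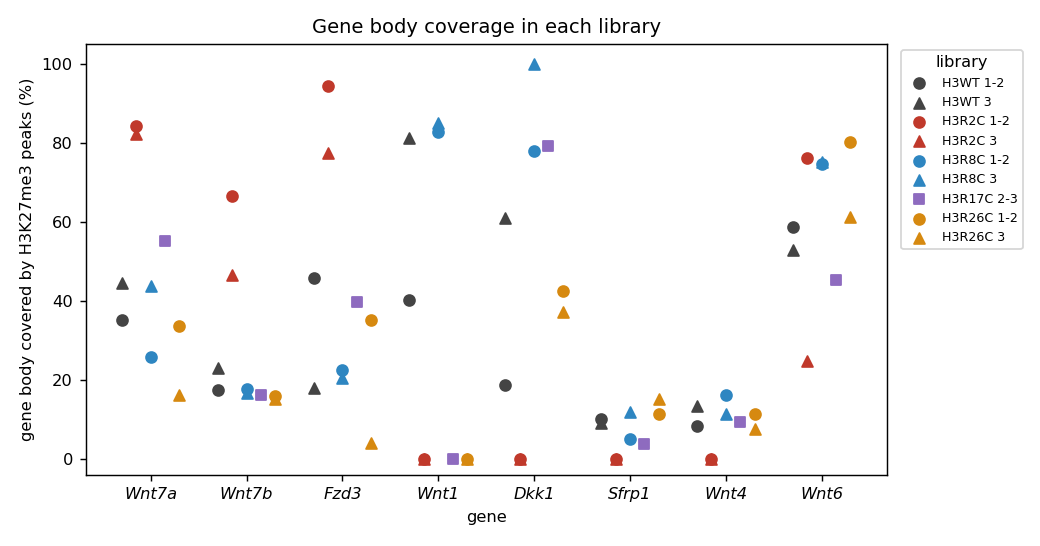
Percent of the gene body covered by H3K27me3 peaks (y axis) for 8 members (x axis), with 1 point a library, coloured by genotype. The H3R2C points of Wnt7a, Wnt7b and Fzd3 lie above all others, and those of Wnt1, Dkk1, Sfrp1 and Wnt4 lie at 0.

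In H3R26C cells, Wnt6 was higher and no member was lower. Over all genes, 5.94% were higher and 5.23% lower, beside 1 of 18 and 0 of 18 members. The scaled signal of Wnt6 (ENSMUSG00000033227.7, chr1:74771892-74785322, plus strand) was 0.282 and 0.395 in H3WT, 0.304 and 0.268 in H3R2C, 0.614 and 0.537 in H3R8C, 0.151 in H3R17C, and 1.06 and 0.846 in H3R26C. Both H3R26C values were above those of the other 7 libraries. The mean was 0.952 ± 0.149 in H3R26C and 0.338 ± 0.0796 in H3WT (SD, n = 2), a log2 difference of 1.03 (SE 0.23, adjusted p = 0.0424). The width of the peak over the start was 15.5 and 5.4 kb in H3R26C and 4.65 and 6.1 kb in H3WT. The call was lost whichever of the 8 libraries was left out, with adjusted p from 0.0523 without the first H3R2C library to 0.151 without the first H3WT library. Over all alternatives it ran from 9.24e-05 to 0.713.

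Its neighbour Wnt10a had a mean of 4.73 ± 1.29 in H3R26C and 1.79 ± 1.28 in H3WT, and the difference of 1.43 (SE 0.62) did not pass the test (adjusted p = 0.218). Wnt7a had 2.62 and 1.52 in H3R26C, below both H3WT values (log2 difference -0.95, SE 0.34, adjusted p = 0.147). By calls, 0 of 17 members were lost, beside 9.38% of genes, and 0 of 18 gained, beside 0.921%. No member was covered by 20 points more over its body, beside 0.536% of genes, and Wnt1 was covered less, beside 7.10%.

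**Figure D5:**
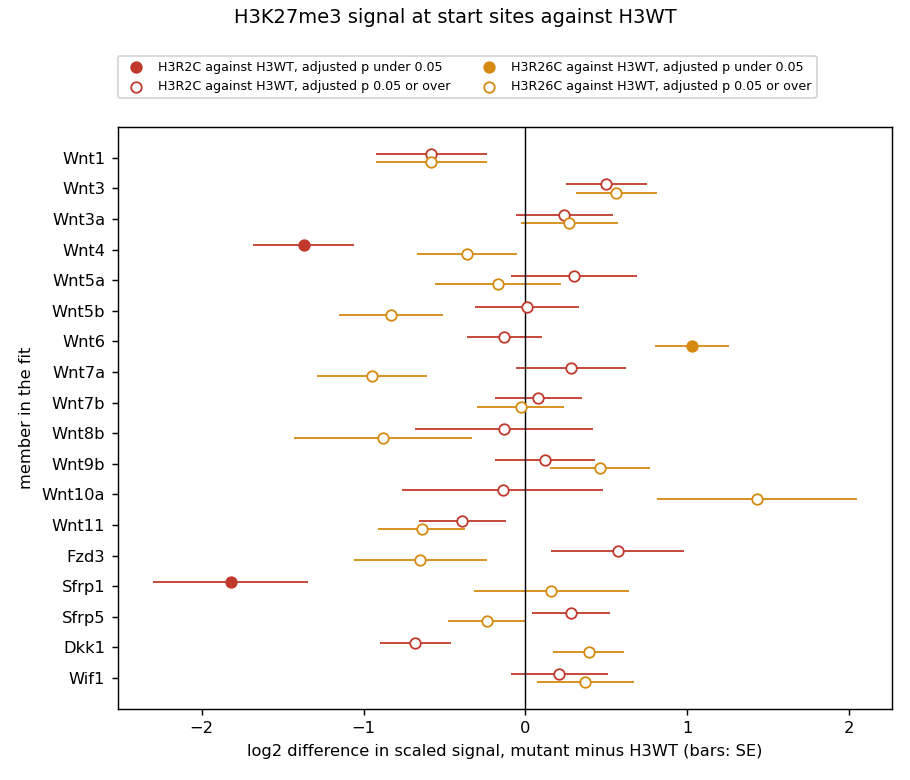
log2 difference in scaled signal at the start site, mutant minus H3WT (x axis; bars are SE), for the 18 members in the fit, with H3R2C in red and H3R26C in orange. Filled points, Wnt4 and Sfrp1 for H3R2C and Wnt6 for H3R26C, had an adjusted p under 0.05.

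Wnt1, the ligand of the midbrain and hindbrain boundary, was singled out after its values were seen, for its gene body. H3K27me3 covered 40.2% and 81.3% of its body in H3WT and 82.7% and 85.1% in H3R8C, and 0% in both H3R2C, both H3R26C and the H3R17C library. In those 5 libraries the nearest peak to the start lay 267 to 309 kb away. At the start the scaled signal was 0 and 0.306 in H3WT, because the peak of the first library began 1.24 kb downstream. The difference at the start did not pass the test for H3R2C (-0.58, SE 0.34, adjusted p = 0.269) or H3R26C (-0.58, SE 0.34, adjusted p = 0.369). Without the first H3WT library it did, with adjusted p of 0.00735 and 0.016, and over all alternatives the values ran from 0.00735 to 1 and from 0.016 to 1. With the upper 50% of peaks, Wnt1 no longer met the rule of 20 points less in either mutant.

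The comparisons of H3R2C and H3R26C with H3WT share the H3WT libraries, so the mutants were also compared with each other. The H3WT means do not enter this difference, although H3WT adds to the shared estimate of the spread. The start-site signal of Wnt4, Wnt6, Sfrp1 and Dkk1 was lower in H3R2C than in H3R26C and that of Wnt7a was higher. Over all genes 26.9% were lower and 17% higher, beside 4 of 18 and 1 of 18 members. Wnt6 differed by -1.16 (SE 0.23, adjusted p = 0.00954) and Dkk1 by -1.07 (SE 0.22, adjusted p = 0.0105), and both calls held whichever of the 8 libraries was left out. Their adjusted p over all alternatives ran from 1.67e-05 to 0.312 and from 0.000151 to 0.109. Sfrp1 differed by -1.97 (SE 0.48, adjusted p = 0.0181), and its call was lost without the first (0.0522) or second (0.124) H3R2C or the second H3R26C library (0.111). Its alternatives ran from 0.00126 to 0.124.
Wnt4 differed by -1.01 (SE 0.31, adjusted p = 0.0394), a call held in 1 of the 8 fits that left out a library, that without the first H3R2C library (0.0216), with up to 0.133 in the others and 0.0028 to 0.365 over all alternatives. Wnt7a differed by 1.23 (SE 0.34, adjusted p = 0.0295), a call held in 2 of 8, those without the first H3R2C (0.038) or the first H3R26C library (0.0324), with up to 0.168 without the second H3R26C library and 0.00445 to 0.324 over all alternatives. These values sum whole peaks that touch the window, so they also depend on peak width. The Wnt7a peak over the start was 29.8 kb wide in both H3R2C libraries, and 27.6 and 7.35 kb in H3R26C. With maximum signal, Wnt7a differed by 0.11 and Wnt6 by -0.30, and with signal prorated to the window by 0.31 and -0.91. Wnt4, Sfrp1 and Dkk1 differed by -1.24, -1.39 and -1.77 with maximum signal. Fzd3 was higher in H3R2C by 1.22 (SE 0.41) without passing the test (adjusted p = 0.0535).

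In H3R8C cells 0 of 18 members were lower and 0 higher by limma, beside 1.28% and 2.21% of genes, and 0 and 1 at an unadjusted p under 0.05. By calls 0 of 17 were lost, beside 4.23%, and 0 of 18 gained, beside 0.823%. The member with the lowest p was Wnt3a, with 2.33 and 3.24 in H3R8C and 1.63 and 1.31 in H3WT (log2 difference 0.81, SE 0.30, adjusted p = 0.343). No member changed by 20 points in its body, beside 0.631% of genes covered more and 2.52% covered less.

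H3R17C was represented by 1 library, which the fit assumed to vary like the others, and its replicate 1 was left out. By limma 0 of 18 members were lower and 0 higher, beside 0.534% and 0.0712% of genes, and 0 and 1 at an unadjusted p under 0.05. By calls 0 of 17 were lost, beside 16.1%, and 0 of 18 gained, beside 0.600%. Dkk1 had the lowest p (log2 difference 0.80, SE 0.28, adjusted p = 0.349). The library was scaled together with the other 8, which lowered their scaled values to 93.5% to 97.1% of those given above.

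Around the members stand 61 other genes of the pathway that were listed for comparison. H3K27me3 lay over the start of 18 of them in both H3WT libraries, beside 8.84% of all genes: 6 of 14 secretion and extracellular genes, 4 of 14 co-receptors and surface genes, 5 of 20 cytoplasmic and polarity genes and 3 of 13 nuclear factors and targets. Of the 23 that entered the fit, 5 had less signal and 3 had more in H3R2C cells compared with H3WT, which is near the 17.9% and 11.3% of all genes. The lower genes were Rspo1, a secreted enhancer of Wnt signalling (log2 difference -1.09, adjusted p = 0.0148), Ror2, the receptor of Wnt5a (-1.65, 0.00332), Nkd1, a feedback inhibitor (-2.00, 0.0169), and the polarity genes Celsr3 (-0.81, 0.0233) and Prickle1 (-1.12, 0.0139). Ror2, Celsr3 and Prickle1 had no peak over the start in either H3R2C library. The higher genes were Lgr6, a receptor for R-spondins (2.06, 0.0185), the nuclear factors Lef1 (1.22, 0.00176) and Pygo1 (1.14, 0.0259). Lef1 had no peak in either H3WT library, a mean of 0.332 in H3R2C and 0.131 in H3R26C, where it was also higher (0.60, 0.0405). Lef1 entered the fit only through its peaks in H3R2C and H3R26C, so its calls are not independent of that filter. The fits that left out a library kept the same genes, and lend these Lef1 calls no separate support.
The calls of Ror2 and Lef1 in H3R2C held whichever library was left out. The others held in fewer of the 8 such fits: Prickle1 in 7, Rspo1 and Nkd1 in 6, Lgr6 and Celsr3 in 4 and Pygo1 in 3, and Lef1 in H3R26C in 4. Other settings ended calls too: Rspo1 differed by -0.31 with a window of 2.5 kb (adjusted p = 0.302) and by -0.10 with any annotated start (0.745), Nkd1 by -0.90 with any annotated start (0.159), and Celsr3 passed in 9 of 15 other settings and Pygo1 in 13 of 17. Over all alternatives the adjusted p of these 4 reached 0.745, 0.159, 0.284 and 0.412. Of the 23 genes, 0 were lower and 1 was higher in H3R26C, beside 5.23% and 5.94% of all genes, and none passed in H3R8C or H3R17C, where 2 were lower and 2 higher in each at an unadjusted p under 0.05.

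The tagged histone was mapped with the anti-HA lists, 2 libraries per genotype. These lists differed in kind: the H3WT lists held 15344 and 37907 peaks with a median width of 10.7 and 2.65 kb, and the mutant lists 46398 to 52083 peaks with 0.8 to 1.6 kb. Values are therefore given per library with no test. An HA peak lay over the start of 12 and 11 members in H3WT, 7 and 9 in H3R2C, 6 and 3 in H3R8C, 2 and 4 in H3R17C and 7 and 8 in H3R26C. The share of members was 31.6% and 28.9% in H3WT beside 16.3% and 16% of all genes, and 5.26% to 23.7% in the mutants beside 7.95% to 21.1%.
Wnt1 had an HA peak over its start in 9 of 10 libraries, all but the first of H3R17C, and Wnt10b and Dkk3, which had no H3K27me3 peak over the start in any library, in 7. Wnt7b and Fzd2 had one in 6. Wnt4 had an HA peak over the start in both H3WT libraries and in 0 of the 8 mutant libraries, and its body was covered over 40.5% and 21.6% in H3WT and 0% to 6.97% in the mutants. Dkk1 and Wnt6 had none in any library, and Sfrp1 had one in the first H3WT library. Of the receptors, Fzd5, Fzd8 and Fzd10 had neither mark over the start in any library.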

How the data were processed

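CUT&RUN with anti-HA and anti-H3K27me3 in C3H 10T1/2 cells was analysed here. The samples with IgG or the antibody to H3K4me3 were not used here. Per the methods, the authors aligned single-end reads to mm10 with Rsubread and called peaks in each labelled sample with SEACR 1.3 in its stringent mode. The deposited lists give the total signal of each peak, which is coverage summed over its bases, and its maximum signal, neither scaled to a common depth by the authors. Read totals were not used here, so precision rests on the spread between libraries. A region too weak for 1 list can be in another.

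Group and replicate came from the sample titles. Identical lists of a group were counted as 1 library, and p-values measure only the spread between libraries. The list of H3R17C replicate 1, named for another mark, was left out. Start sites and bodies were those of protein-coding genes in GENCODE (mm10). A peak counted with an overlap of 1 bp with 1 kb on each side of the start. Its total signal was summed, divided by the library's median over genes marked in every library, and tested as log2(value + 0.25) with limma 3.58.1 in R 4.3.3 (lmFit, contrasts.fit and eBayes with trend) at an adjusted p under 0.05 over 2810 genes called in both libraries of a genotype. Calls and gene bodies were compared without a test. The procedure was tested on simulated data. Alternatives were other peak cut-offs, windows, start sites, pseudocounts, scalings, gene filters and thresholds, left-out libraries, and a replicate block; thresholds and peak choices for gene bodies were added after seeing the data. The members and lists were chosen with earlier results of these data known. Full values are given for members past the limma threshold or lost by calls, and the others by class; pathway genes are named when they passed against H3WT. Wnt7b, Fzd3, Wnt1, Wnt3a and Wnt10a were singled out after their values were seen.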

Additional observations from a re-analysis of the deposited data

Results flagged for a closer look

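The difference between the effects of H3R2C and H3R26C, tested directly as H3R2C minus H3R26C in log2 signal at the start site with limma and Benjamini-Hochberg adjustment over all genes of the fit, passed the threshold for 5 of 18 members, 4 lower and 1 higher, beside 26.9% and 17% of all genes. It was -1.01 for Wnt4 (adjusted p = 0.0394), -1.16 for Wnt6 (0.00954), -1.97 for Sfrp1 (0.0181), -1.07 for Dkk1 (0.0105) and 1.23 for Wnt7a (0.0295). The first 4 were lower in both H3R2C libraries than in both H3R26C libraries and Wnt7a was higher in both. Wnt6 and Dkk1 kept their calls in 8 of 8 fits that each left out a library, Sfrp1 in 5, Wnt7a in 2 and Wnt4 in 1.

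Of 23 pathway genes 7 were lower and 2 higher, beside the same 26.9% and 17% of all genes. The 8 named above were chosen from a comparison that uses the same H3R2C libraries, so their calls here are not independent of it, and 6 of them passed. Rspo1 was lower in H3R2C by a log2 difference of -1.57 (0.00274), Ror2 by -1.45 (0.00381), Nkd1 by -1.91 (0.0134) and Prickle1 by -1.40 (0.00429), while Lgr6 was higher by 2.73 (0.00476) and Lef1 by 0.61 (0.0124). The other 3 were Rspo4 (-0.98, 0.0418), Axin2 (-1.48, 0.0116) and T (-1.16, 0.0142). Where 1 genotype had no peak, as for Dkk1, Ror2 and Prickle1 in H3R2C and Lgr6 in H3R26C, the size depends on the pseudocount. Groups of 2 libraries were too small to look for single libraries that stand apart.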

How the results depend on the processing

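Counts of members past the threshold are small and moved with the processing, and the cause was not tested beyond what each alternative itself changes. The members lower in H3R2C than in H3WT numbered 0, in place of 2, with signal as deposited and at an adjusted p under 0.001. With genes marked in every library they also numbered 0. Wnt4 and Sfrp1 could not enter that fit, since they had no peak in the second H3R2C library. With maximum signal neither Wnt4 (adjusted p = 0.0634) nor Sfrp1 (0.0746) was called lower in H3R2C. Dkk1 was called there instead (log2 difference -1.37, adjusted p = 0.00641). The member higher in H3R26C was not called (0) with 50% of the window covered, a pseudocount of 1, signal as deposited, scaling by summed signal, maximum or prorated signal, genes marked in any or in every library, or an adjusted p under 0.001. That member, Wnt6, was also lost with the upper 50% of peaks (0.91, adjusted p = 0.054), where another member was called. In H3R2C against H3R26C the lower members numbered 0 with signal as deposited and at 0.001, and 2 with maximum signal. With genes marked in every library they numbered 1, in a fit that Wnt4, Sfrp1 and Dkk1 could not enter. The higher ones numbered 0 with signal as deposited, summed, maximum or prorated signal and at 0.001, 2 with a pseudocount of 1 (beside 16.7% of all genes), the upper 50% of peaks (16.5%) or a window of 2.5 kb (20.2%), and 4 with any annotated start (19.2%). Counting the 3 labelled replicates as separate samples, which repeats identical lists, gave 1 higher for H3R2C, in H3R26C 3 lower and 3 higher ones, 1 higher in H3R8C, 1 lower and 1 higher in H3R17C, and 4 higher in H3R2C against H3R26C. Maximum signal gave 1 lower in H3R26C, the upper 50% of peaks and any annotated start each gave 1 higher in H3R8C, and 50% of the window gave 1 lower in H3R17C.

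By calls, the lost members numbered 2, 3 and 2 in H3R2C with the upper 50% of peaks, 50% of the window and the window of 2.5 kb, of 15, 16 and 18 that could be, beside 29.4%, 32.3% and 21.0% of all genes. In H3R17C they numbered 1, 4 and 1 (beside 16.6%, 21.3% and 13.7%), and in H3R26C 1 with the upper 50% and 1 with 2.5 kb (11.1% and 9.91%). With the upper 50% of peaks 1 of 22 was gained in H3R26C, 2 in H3R8C and 2 in H3R17C, beside 0.769%, 0.653% and 0.417%. Leaving out 1 library at a time gave 0 to 2 lower in H3R2C, 0 to 1 lower and 0 to 1 higher in H3R26C, 0 to 1 higher in H3R8C, 0 to 1 lower in H3R17C, and 2 to 3 lower and 0 to 2 higher in H3R2C against H3R26C. Lost members then numbered 1 to 4 in H3R2C, 0 to 1 in H3R26C, 0 to 1 in H3R8C and 0 to 2 in H3R17C, and gained members 0 to 1 in H3R8C and 0 to 1 in H3R17C. One value reversed: Lef1 in H3R2C against H3R26C was -0.04 with maximum signal.

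With a replicate block, 2 members were lower in H3R2C, 0 were higher in H3R26C (Wnt6 adjusted p = 0.0745) and 3 were lower in H3R2C against H3R26C (Wnt4 0.061). Lef1 in H3R26C was also lost (0.0736), and over all genes the higher calls in H3R8C fell to 32. Same-numbered libraries shared only a number: their deviations correlated at -0.0559 to 0.149. H3R17C, with its single list, could not enter the fit with a replicate block. Over all genes, the lower and higher calls in H3R2C were 245 and 121 with signal as deposited and 75 and 50 with genes marked in every library. At 0.001 they were 45 and 38, and over labelled replicates 871 and 867. In H3R26C they were, in the same order, 21 and 16, 25 and 8, 0 and 0, and 457 and 569. The fit of genes marked in every library held 885 genes, and a gene without a peak in some library could not be called there. Read totals were not used, and weak regions below a list's lowest signal were not assessed.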
